A study of Mus musculus with 2 samples.

Results

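The 42 DNA replication genes described here were taken as a named list that covers the course of a replication fork, and all 42 were found among the 31053 genes of the matrix. They were measured in donor T cells of the colon during graft-versus-host disease, an attack of the transplanted T cells on the tissues of their new host. Balb/c recipients were lethally irradiated and given bone marrow and splenocytes of C57BL/6 donors, at 5000000 marrow cells and a dose of 800000 alpha beta T cells, and the colons were taken at 21 days. Colon cells of 5 recipients were combined before T cells bearing donor H2-Kb and TCR beta were sorted, so every cell shares 1 pool, 1 RNA library (droplets of 10x Genomics, read from the 5' end) and 1 library of T cell receptor (TCR) chains. No untreated or syngeneic group and no second pool was analysed here, so no p-value was computed. Each interval below is a 95% interval that covers counting error only. Intervals of levels and ratios take unique molecular identifiers (UMIs) as independent. Intervals of shares take cells as independent, although the cells come from 1 pool and many share a clone.

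Replication is prepared and carried out in a fixed order. In G1 the licensing factors Cdc6 and Cdt1 load the Mcm2 to Mcm7 helicase ring onto origins, and at the start of S phase Cdc45 and the GINS complex switch the ring on. The unwound strand is coated by the RPA trimer, primed by the polymerase alpha and primase complex, and copied by polymerases delta and epsilon on the sliding clamp Pcna, which the Rfc complex loads. Fen1 and Lig1 join the lagging strand fragments, Rrm1, Rrm2, Tyms and Dut supply or police the deoxynucleotides, Ung removes uracil, and Chaf1a, Chaf1b, Uhrf1 and Dnmt1 rebuild nucleosomes and copy DNA methylation. Many of these genes are known targets of E2F transcription factors, and activated T cells are among the fastest dividing cells of the body.

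Promoters of some licensing genes and some nucleotide supply genes are shown first. The sums of these groups differed by small ratios in cells described below, and their members did not all run alike. A link between promoter letters and levels was not tested. Each line gives the 160 bases before a RefSeq start site of the GRCm38.p6 assembly, read 5′ to 3′ on the gene's strand, with matches to 8-base E2F letters in capitals. The windows are chr1:128359706-128359865 on the minus strand for Mcm6, chr8:75109349-75109508 on the plus strand for Mcm5, chr6:88898781-88898940 on the minus strand for Mcm2, chr7:102441535-102441694 on the plus strand for Rrm1 and chr5:30073626-30073785 on the minus strand for Tyms.
Mcm6: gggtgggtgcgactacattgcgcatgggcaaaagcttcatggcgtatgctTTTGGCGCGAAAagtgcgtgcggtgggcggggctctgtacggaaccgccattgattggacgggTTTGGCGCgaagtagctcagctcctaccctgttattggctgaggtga
Mcm5: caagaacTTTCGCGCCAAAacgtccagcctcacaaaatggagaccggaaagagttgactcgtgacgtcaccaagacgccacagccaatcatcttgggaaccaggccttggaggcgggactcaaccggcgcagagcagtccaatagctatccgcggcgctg
Mcm2: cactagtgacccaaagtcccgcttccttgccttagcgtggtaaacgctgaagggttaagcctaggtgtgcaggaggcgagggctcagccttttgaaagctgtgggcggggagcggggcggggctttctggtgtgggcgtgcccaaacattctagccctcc
Rrm1: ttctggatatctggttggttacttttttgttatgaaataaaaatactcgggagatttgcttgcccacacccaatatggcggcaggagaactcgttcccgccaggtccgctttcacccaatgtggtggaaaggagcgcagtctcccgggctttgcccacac
Tyms: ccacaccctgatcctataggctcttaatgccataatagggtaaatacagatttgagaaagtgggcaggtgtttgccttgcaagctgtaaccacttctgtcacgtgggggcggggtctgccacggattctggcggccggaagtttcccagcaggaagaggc

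Windows of 250 bases before to 50 bases after the start were searched on both strands for the E2F letters TTTCCCGC, TTTCGCGC, TTTGCCGC and TTTGGCGC. Of the 42 genes, 34 had a window. A match was present in 13 of these 34 genes (38.2%), against 2.60% of all 27025 genes with a window. The licensing group held 6 of the 13, namely Cdc6, Cdt1, Mcm3, Mcm5, Mcm6 and Mcm7, out of 7 licensing genes with a window. Mcm6 had 3 matches, of which 2 overlap, and Mcm5 had 2 overlapping matches, while Mcm2 had none. None of the 5 nucleotide supply and uracil removal genes had one. The letters CCAAT were present in 64.7% of the replication genes and 41.1% of all genes. The letters TTTGAA, as in the cell cycle homology region of mitotic promoters, were present in 17.6% of the replication genes, 20.2% of all genes and 72.7% of 22 mitosis genes. A match says that the letters are there, and binding was not measured.

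After barcodes with fewer than 500 genes or more than 10% mitochondrial UMIs were left out, 5333 of 5348 remained, with a median of 4800 UMIs and a range of 2549 to 39138. The sorted cells read as T cells: all 8 T cell markers had UMIs (46.0 per 10000 UMIs over the list), and B cell, epithelial and fibroblast markers summed to 0.0214, 0.204 and 0.151 per 10000, with Cd79a and Muc2 among those at 0. Macrophage markers summed to 4.35 per 10000, and 66 barcodes carried at least 4 of 9 of them. The library titles name CD4 T cells, yet 2391 cells had Cd8a or Cd8b1 without Cd4 (the CD8 class) and 1861 had Cd4 without Cd8a or Cd8b1 (the CD4 class). Both kinds of UMI were present in 301 cells and neither in 780. Doublets were not called; 232 cells had more than 1 productive TRB chain and entered no clone.

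The replication genes were a small and uneven part of these transcriptomes. Together they gave 75183 UMIs, which is 0.230% of all UMIs or 23.0 per 10000. The least counted was Gins1 with 247 UMIs in 216 cells, and the most counted was Dut with 7869 UMIs in 2418 cells, so each of the 42 passed the minimum of 50 UMIs used for ratios. To compare cells of unequal depth, each cell was thinned to 2000 UMIs, which no kept cell fell short of. The median cell then held 2 UMIs of the 42 genes, 850 cells held 0, and the highest held 36. Cells with 7 UMIs or more were called high, the first whole number past the median plus 3 scaled median absolute deviations. These 725 cells (13.6%) held 61.5% of all replication gene UMIs and 24.4% of all UMIs. The high cells are a range and not a type: 141 cells lay 1 UMI under the threshold, 120 at it and 71 one over it.

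**Figure D1:**
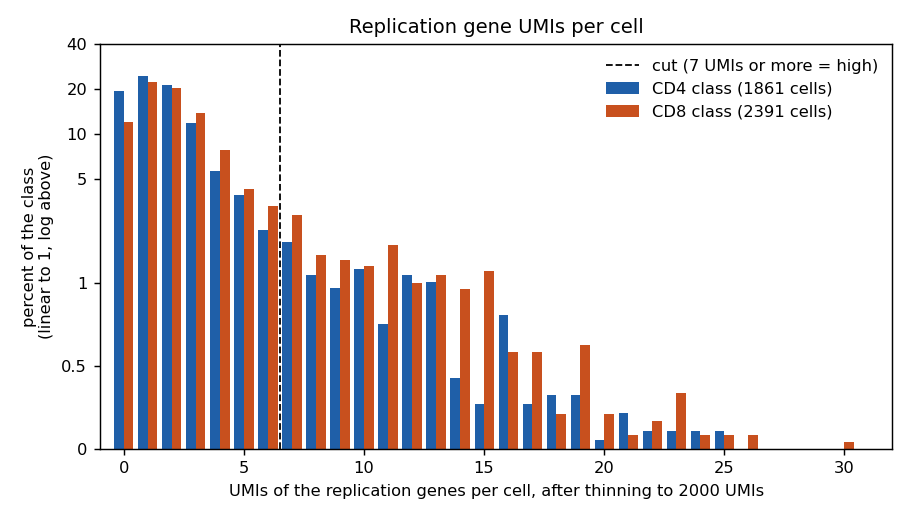
Percent of cells (vertical axis, linear up to 1 and logarithmic above) by the number of replication gene UMIs per cell after thinning (horizontal axis), for the CD4 and the CD8 class; the dashed line is the threshold at 7 UMIs. Both classes have most cells at 0 to 3 UMIs and a long tail, and 11.2% of the CD4 class and 16.3% of the CD8 class lie at or over the threshold.

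How much of a gene's UMIs lay in the high cells differed from gene to gene, also within a role. Cdc6, which helps to load the helicase at origins, had 88.3% of its UMIs in the high cells and was detected in 358 cells. Rrm2, the small ribonucleotide reductase subunit made in S phase, had 84.0% there, Pole, the catalytic subunit of the leading strand polymerase, 78.2%, and Mcm10, which helps to start the helicase, 77.2%. At the other end, Rpa2, the middle subunit of the single strand binding trimer, had 37.2% of its UMIs in the high cells, Gins4, a GINS subunit, 45.1%, and Rpa1, the large RPA subunit, 47.2%. Of the Rpa2 UMIs 53.3% lay in cells that were low for the 42 genes and without Mki67. The correlation of each gene with the sum of the others across cells ran from 0.21 for Rpa2, Gins3 and Gins4 to 0.55 for Mcm5 and 0.56 for Rrm2. These values come from 5333 cells of 1 library and use the genes that define the high cells, so they are a description.

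Outside the list, the genes whose levels ran most like the replication sum across the 5333 cells were Pclaf, a Pcna binding factor (Pearson r = 0.66), Stmn1, a tubulin binding protein (0.61), and Clspn, the checkpoint adaptor at the fork (0.57). Asf1b (0.55), a histone chaperone, Tk1 (0.54), the thymidine salvage kinase, Smc2 (0.52), a condensin subunit, the linker histone Hist1h1b (0.51), Mki67 (0.51), Top2a (0.51) and Tuba1b (0.50) followed, out of 9358 genes compared. Pclaf and Stmn1 also led within CD4 cells (0.64 and 0.59) and within CD8 cells (0.67 and 0.64). The cells share a library and differ in depth, so these correlations carry no test.

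Cells were then divided by the presence of Mki67, which encodes the Ki-67 protein of the mitotic chromosome surface and accumulates from S phase to mitosis. High cells with 0 Mki67 UMIs after thinning, the stage named S phase entry in what follows, numbered 359 of 5333, or 6.73% (6.07 to 7.44). High cells with Mki67 were 366 (6.86%), low cells with Mki67 were 435 (8.16%), and low cells without Mki67 were 4173 (78.2%). Entry was seen in 196 of 2391 cells of the CD8 class, or 8.20% (7.13 to 9.37), and in 99 of 1861 cells of the CD4 class, or 5.32% (4.34 to 6.44), intervals that do not overlap. Cells with both kinds of coreceptor UMI had 11.3% (7.95 to 15.4) at a median depth of 7939 UMIs, and cells with neither had 3.85% (2.61 to 5.45) at 3955. Among the 66 macrophage-marker barcodes, at a median of 7670 UMIs, 5 were in the entry class (7.58%, 2.51 to 16.8), an interval that holds the shares of both T cell classes.

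The entry class rests on what thinning leaves of Mki67. At full depth only 135 of the 359 entry cells (37.6%) had no Mki67 UMI at all. By that stricter definition the entry share was 2.53% (2.13 to 2.99) of all cells, 2.58% (1.91 to 3.41) of the CD4 class and 2.80% (2.18 to 3.55) of the CD8 class. The intervals of the classes then overlapped. When thinning was left out altogether, the shares were 2.10% for CD4 cells and 2.01% for CD8 cells. The higher entry share of CD8 cells was thus seen with thinned Mki67 and not with Mki67 read at full depth. Entry cells had a median of 8850 UMIs for CD4 cells and 10115 for CD8 cells, and the part of depth was not tested. The CD8 class was also higher in high cells with Mki67 (8.11%, 7.05 to 9.28) than the CD4 class (5.91%, 4.88 to 7.08), with intervals that overlap narrowly.

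The entry cells carried the wider S phase programme beside the 42 genes that chose them. All 42 were at least 2.0-fold over the low cells without Mki67, which the choice of cells fixes; Cdc6 was highest at 0.596 against 0.0146 per 10000 UMIs (40.8-fold) and Rpa2 lowest at 2.0 against 0.998. Of 31 measured genes among 32 other replication genes, 25 were 1.5-fold or more higher, against 16.4% of all 10147 genes measured. Clspn stood at 1.53 against 0.0542 per 10000 (28.1-fold, 23.0 to 34.7) and Dscc1, of the alternative clamp loader, at 0.314 against 0.0151 (20.8-fold, 14.0 to 31.7). All 16 fork repair and mismatch repair genes were higher, led by Exo1, a resection nuclease (26.1-fold, 14.5 to 50.4), and Chek1, the replication checkpoint kinase (25.1-fold, 14.2 to 47.3). Of 16 further nucleotide metabolism genes 14 were higher, with Tk1 at 12.6-fold (11 to 14.6). Among 19 measured G1 to S regulators 15 were higher, with E2f8, an E2F family repressor, at 23.7-fold (15.3 to 37.8) and Ccne1, cyclin E1, at 13.0-fold (10.1 to 16.8).

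Mitosis genes were also above the low cells, 25 of 26 by 1.5-fold or more, with Ccna2, cyclin A2, at 7.07-fold (6.31 to 7.92). Their summed level was 6.00 per 10000 in low cells without Mki67, 23.1 in entry cells, 47.7 in high cells with Mki67 and 61.3 in low cells with Mki67. The replication sum, which set these classes, was 10.3 per 10000 in low cells without Mki67, 56.6 in entry cells and 59.2 in high cells with Mki67. Of 12 genes of arrest and quiescence 4 were lower by 1.5-fold or more, against 17.0% of all genes, among them Btg1 (6.86 against 19.7 per 10000, 0.349-fold) and Btg2 (0.436-fold), both antiproliferative factors of resting lymphocytes. Of the same 12, 2 cell cycle inhibitors were higher in entry cells, Cdkn2a at 3.48-fold (2.88 to 4.2) and Cdkn2c at 2.67-fold (2.24 to 3.16). A count of 2 among 12 is near the 16.4% of all genes that were higher by 1.5-fold or more. Entry cells also had a greater depth than the low cells (median 9977 against 4348 UMIs) and fewer macrophage marker UMIs (1.18 against 5.55 per 10000); the part of either in these ratios was not tested.

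When the threshold was set by the 14 licensing and helicase activation genes alone, 603 cells were high, and 489 of them were high by all 42 genes. Each of the other 28 replication genes was then 1.5-fold or more higher in the high cells, against 12.3% of all genes measured. The 28 include the polymerases, the clamp loader, the ligase and the nucleotide enzymes. This version of the threshold was chosen after the data were seen.

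Within the high cells, the order of the replication genes against Mki67 was set out by role. Entry cells and high cells with Mki67 had similar depth (medians of 9977 and 10028 UMIs) and similar replication sums (56.6 and 59.2 per 10000, ratio 0.957). The licensing group was slightly higher in entry cells (15.4 against 14.5 per 10000, ratio 1.06, 1.03 to 1.10), with Mcm4 at 1.16 (1.05 to 1.28), Mcm2 at 1.14 (1.01 to 1.29) and Mcm6 at 1.11 (1.03 to 1.20), all subunits of the helicase ring. The nucleotide supply and uracil removal group was lower (11.8 against 13.8 per 10000, ratio 0.858, 0.825 to 0.892). In it Rrm2 stood at 2.42 in entry cells and 3.98 in high cells with Mki67 (0.606, 0.559 to 0.658), Rrm1, the large reductase subunit, at 1.31 and 1.74 (0.753, 0.671 to 0.845), and Tyms, thymidylate synthase, at 1.57 and 2.06 (0.763, 0.686 to 0.847). Ung, the uracil glycosylase of the same group, ran the other way at 0.651 against 0.375 per 10000 (1.73-fold, 1.41 to 2.13). Dut, the dUTPase and the most counted gene of the group, was at 5.90 against 5.66 (1.04, 0.985 to 1.11), so the lower group sum came from Rrm2, Rrm1 and Tyms. Of the 42 genes, 1 was higher by 1.5-fold or more (Ung; 3.16% of all genes) and 2 were lower (Rrm2 and Gins3; 4.11% of all genes).

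Gins3, a GINS subunit, was at 0.196 against 0.347 per 10000 (0.566, 0.422 to 0.753) and Cdc45, the helicase cofactor, at 0.306 against 0.431 (0.710, 0.558 to 0.901). With another random thinning Cdc45 was higher in entry cells (log2 ratio 0.14 in place of -0.49), so its direction depended on the draw, which the intervals do not cover. Rpa2 (1.17) turned with thinning to 1000 UMIs, Mcm3 (1.10) under 3 alternatives, among them Mki67 read at full depth, and Pola1, the catalytic subunit of polymerase alpha (0.831), with 1 cell per clone. Rrm2, Rrm1, Tyms and Gins3 were lower and Ung higher in entry cells under each of 25 alternatives run, but the size varied. The log2 ratio ran from -2.54 to -0.26 for Rrm2, -1.58 to -0.32 for Rrm1 and -1.63 to -0.16 for Tyms. For Gins3 it ran from -1.55 to -0.08, near even at its upper end, and for Ung from 0.41 to 1.07. Among the 25 alternatives, the settings for coreceptor class calls and for clone definition or size do not enter the ratios and returned the main values. All 26 mitosis genes, of which Mki67 set the split, were lower by 1.5-fold or more, with Cenpf at 0.375 and Tpx2 at 0.382. Myc (1.51-fold, 1.26 to 1.81) and Ccnd2, cyclin D2 (1.44-fold, 1.27 to 1.65), both of the G1 phase, were higher in entry cells, whereas E2f8 (0.492) and Cdc7, the kinase that fires origins (0.501), were lower.

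The 135 entry cells with no Mki67 UMI at full depth were set against the other 224. Their licensing sum was 14.9 against 15.5 per 10000 (ratio 0.961, 0.905 to 1.02), and Mcm2, Mcm4 and Mcm6 stood at 1.13, 1.12 and 1.04. Rrm2 was at 0.794 against 2.97 (0.268, 0.209 to 0.338), Mcm10 at 0.0928 against 0.315 (0.294, 0.130 to 0.584), Rrm1 at 0.557 against 1.56 (0.356, 0.263 to 0.473) and Cdc45 at 0.155 against 0.357 (0.433, 0.234 to 0.748). Of the 42 genes 14 were lower by 1.5-fold or more, against 8.51% of all genes measured, and 0 were higher, against 6.16%. Ung was at 1.20 (0.897 to 1.58). Entry cells with no Mki67 UMI thus had Mcm2, Mcm4 and Mcm6 at levels near those of the other entry cells and lower Rrm2, Rrm1 and Mcm10. Ccnd2 was 1.76-fold and Klf2, a quiescence factor of T cells, 1.89-fold higher in them. These cells were shallower (median 6792 against 11884 UMIs) and held more macrophage marker UMIs (3.09 against 0.529 per 10000), with H2-Aa at 0.515 against 0.0455; the part of depth and of those markers was not tested.

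**Figure D2:**
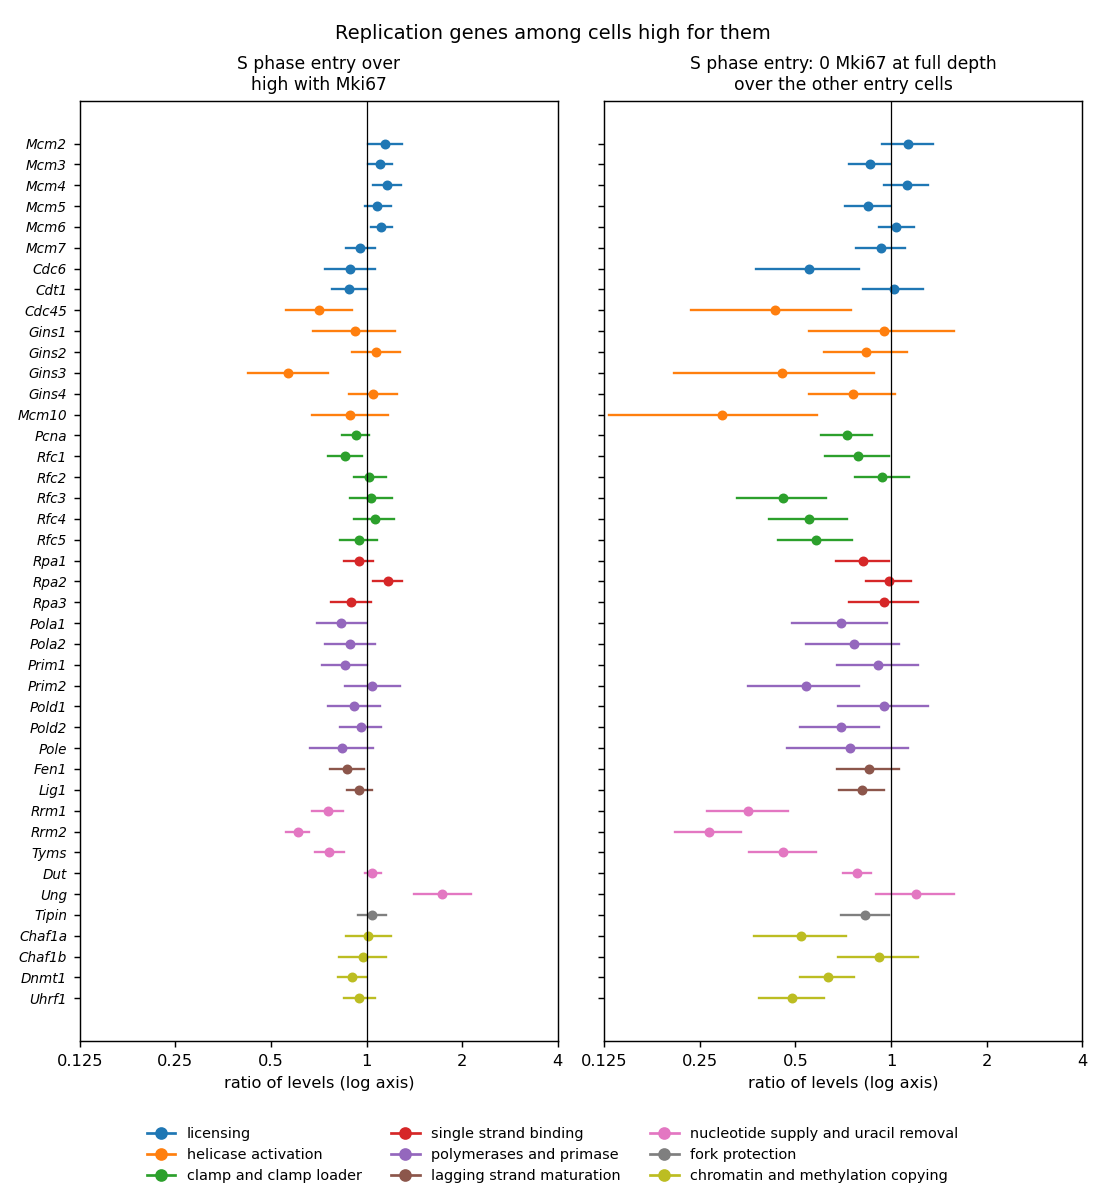
Ratio of levels (horizontal log axes, with 95% counting intervals) for each of the 42 genes, coloured by role: S phase entry cells over high cells with Mki67 on the left, and entry cells with no Mki67 at full depth over the other entry cells on the right. Licensing genes lie near 1 in both, Rrm1, Rrm2 and Tyms lie left of 1 in both (Rrm2 at 0.606 and 0.268), and Ung lies right of 1 on the left (1.73).

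The level of the replication genes was lower in the CD4 class than in the CD8 class. The sum was 20.8 per 10000 UMIs (20.5 to 21.0) against 25.6 (25.4 to 25.9), a ratio of 0.810 (0.796 to 0.823), at median depths of 4768 and 4910 UMIs. Of the 42 genes 40 had a ratio under 1, and their median log2 ratio was -0.29, beside -0.04 over all 10133 genes measured. The difference was shallow: 3 of the 42 were lower by 1.5-fold or more, near the 7.02% of all genes, and 0 were higher, against 7.92%. Other replication genes ran alike, with 26 of 32 under 1 and a median of -0.26, led by Orc1, the largest origin recognition subunit (0.583), Dscc1 (0.609), Pole2, a polymerase epsilon subunit (0.617), and Rnaseh2b, of ribonuclease H2 (0.660), and so did 14 of 16 fork repair genes (median -0.29). All 26 mitosis genes were under 1 too, with a median of -0.16, and so were 7 of 8 T cell markers, with a median of -0.22 (44.6 against 48.6 per 10000), whose part in the result was not tested. Of 12 arrest genes 2 were 1.5-fold or more higher in the CD4 class, Cdkn1a, which encodes p21 (2.41 against 1.02 per 10000), and Btg2 (9.06 against 5.80), and Cdkn2a was lower (0.138 against 0.392). Macrophage markers were at 2.44 per 10000 for CD4 and 1.46 for CD8 cells, and without the 66 macrophage-marker barcodes the log2 ratio of the sum was -0.30, as with them.

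The role groups ran from 0.709 to 0.916 in this ratio. Single strand binding was lowest at 0.709 (0.675 to 0.745). In it Rpa2 was at 0.503 and Rpa1 and Rpa3 at 0.908 and 1.0, so its lowest place rests on Rpa2. Licensing genes summed to 0.802, helicase activation to 0.798, clamp and clamp loader to 0.797, polymerases and primase to 0.797, and chromatin and methylation copying to 0.754. Cdc6 stood at 0.149 against 0.212 per 10000 (0.704, 0.580 to 0.852), Mcm6 at 1.20 against 1.5 (0.798, 0.745 to 0.854), and Pcna at 0.765 against 0.915 (0.836, 0.767 to 0.912). Lagging strand maturation was at 0.858, with Lig1, the ligase, at 0.733 against 0.853 (0.859, 0.786 to 0.939). The lowest genes after Rpa2 were Pole (0.0963 against 0.155; 0.620, 0.488 to 0.782), Chaf1b, a subunit of chromatin assembly factor 1 (0.227 against 0.354; 0.642, 0.550 to 0.747), Rfc3, a clamp loader subunit (0.681, 0.587 to 0.788), Prim2, the large primase subunit (0.687, 0.568 to 0.827), and Gins1 (0.700, 0.516 to 0.941). The nucleotide group was at 0.890, with Rrm2 at 0.962 in both classes and Ung at 0.175 against 0.152 (1.15, 0.943 to 1.40). Rpa3, the small RPA subunit, was at 0.50 in both, and Tipin, of the fork protection complex and alone in its role group, at 0.713 against 0.778 (0.916, 0.836 to 1.0).

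Rpa2 had the lowest ratio of the list. It was at 0.820 per 10000 UMIs (0.768 to 0.875) in the CD4 class and 1.63 (1.57 to 1.70) in the CD8 class, a ratio of 0.503 (0.466 to 0.543), while its partners Rpa1 and Rpa3 were at 0.908 and 1.0. Its ratio lay under 1 in each of 9 comparisons, the whole classes, 4 phase stages and 4 clone sizes, at 0.452 to 0.684, and its interval lay under 1 in all 9; the 9 share cells. No other of the 42 genes had its interval under 1 in all comparisons where it was measured. In low cells without Mki67 Rpa2 was at 0.673 against 1.43 (0.472, 0.425 to 0.523), and in high cells with Mki67 at 1.28 against 2.02 (0.635, 0.528 to 0.761). Leaving out the largest clone of each class or keeping 1 cell per clone left its log2 ratio within -1.06 to -0.88, the range over all 25 alternatives. Of these, the settings for thinning, threshold, Mki67 and clone definition or size do not enter this ratio and returned the main value.

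Within 3 of the 4 phase stages the sums, which include Rpa2, came closer to even. In low cells without Mki67 the sum was 9.93 against 11 per 10000 (0.901, 0.874 to 0.928), and of 37 measured genes 17 had a ratio over 1 and 20 under 1. There 1 gene was 1.5-fold or more higher in the CD4 class (8.33% of all genes) and 2 lower (7.09% of all genes). The higher one was Ung, at 0.0682 against 0.0332 (2.05, 1.29 to 3.33), and the lower ones were Rpa2 and Chaf1b (0.641, 0.486 to 0.840). In entry cells the sum was 55 against 58.5 (0.940, 0.910 to 0.971), and 0 of the 42 were higher by 1.5-fold or more (6.56% of all genes) and 1, Cdc45, lower (0.614, 0.364 to 0.997; 7.23% of all genes). In high cells with Mki67 the order of the sums turned, 61.0 against 57.6 (1.06, 1.03 to 1.09), with Rrm2 at 4.84 against 3.32 (1.46, 1.31 to 1.62) and Rrm1 at 2.10 against 1.57 (1.34, 1.13 to 1.57). In that stage 0 of the 42 were higher by 1.5-fold (5.55% of all genes) and 1, Rpa2, was lower (7.17% of all genes). The replication genes set these stages, so the threshold bounds the thinned sums within them. The part of that bound in the ratios was not tested. Low cells with Mki67 were the exception, with 17.4 against 22.6 per 10000 (0.770, 0.730 to 0.813) and 7 of 35 measured genes lower by 1.5-fold or more against 7.25% of all genes, and 0 higher against 6.84%.

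**Figure D3:**
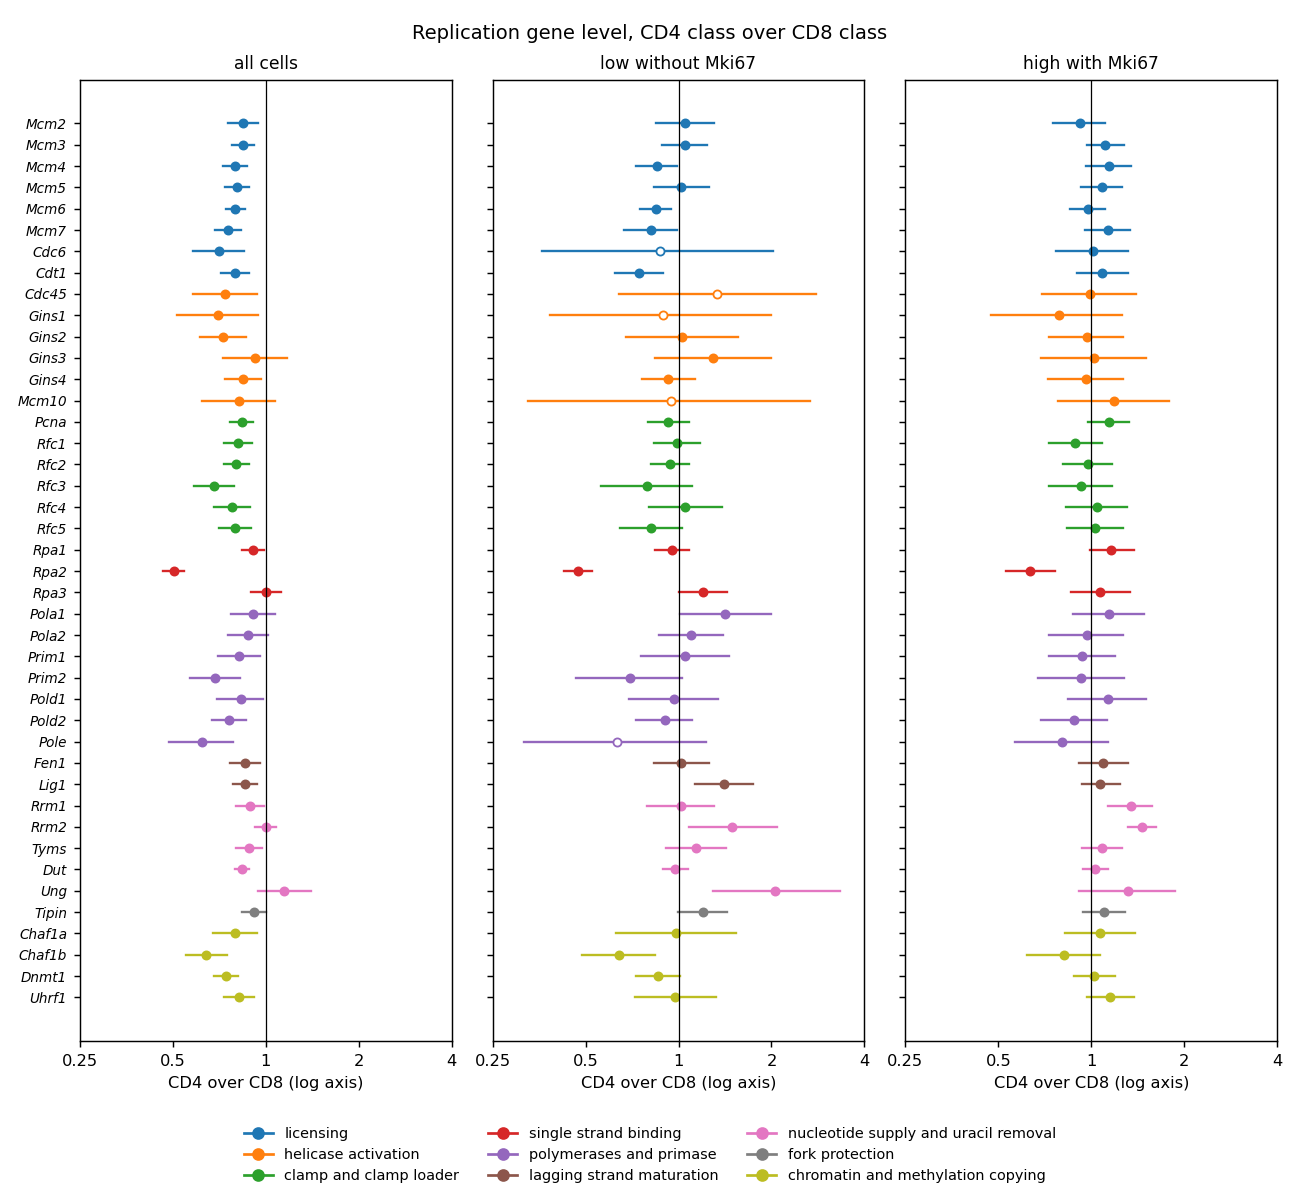
Level in the CD4 class over that in the CD8 class (horizontal log axes, 95% counting intervals) for each of the 42 genes, coloured by role, in all cells, in low cells without Mki67 and in high cells with Mki67; open points have under 50 UMIs. In all cells 40 of the 42 points lie left of 1, in the other panels most points lie near 1, and Rpa2 lies left of 1 in all 3 (0.503, 0.472 and 0.635).

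Clones were defined by the nucleotide CDR3 and the V and J segments of productive TRA and TRB chains, in cells with 1 productive TRB. Of the kept cells 5133 had a contig and 2628 had a clonotype, which made 826 clones. In the CD4 class the replication sum was 17.2 per 10000 UMIs (16.5 to 17.9) in 213 clones of 1 cell, 26.1 (25 to 27.2) in clones of 2 to 4 cells, 21.5 (20.7 to 22.2) in clones of 5 to 19 and 27.8 (27.1 to 28.6) in clones of 20 or more. The share of high cells followed the same order, at 6.10% (3.29 to 10.2), 18.2% (12 to 25.8), 10.1% (6.43 to 14.9) and 18.9% (14.8 to 23.7). Clones of 1 cell were lowest, but the sizes did not form a steady rise. In the CD8 class the sums were 28.2, 26.3, 29.0 and 29.6 per 10000 and the high shares 19%, 20.1%, 19.6% and 20.1%, with intervals that all overlap for the shares. Cells without a clonotype had 18.0 per 10000 among CD4 cells and 21.0 among CD8 cells, at medians of 4516 and 4299 UMIs.

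In the CD4 class 9 of 213 clones of 1 cell (4.23%, 1.95 to 7.87) and 25 of 322 cells of clones of 20 or more (7.76%, 5.09 to 11.2) were entry cells, beside CD8 counts of 23 of 242 (9.5%, 6.12 to 13.9) and 59 of 562 (10.5%, 8.09 to 13.3). The intervals overlap within each class. With Mki67 read at full depth the CD4 share was 0.469% (0.0119 to 2.59) in clones of 1 cell. In large clones it was 4.66% (2.63 to 7.57), an interval that lies narrowly above the other. The CD8 shares were then 2.89% (1.17 to 5.87) and 2.49% (1.37 to 4.14), with intervals that overlap. The CD4 intervals overlapped without thinning, with a threshold at 2 scaled deviations and with 0 UMIs of every mitosis gene. They take cells as independent, although the 322 CD4 cells of large clones came from 12 clones.

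Pooled over 12 clones, CD4 cells of large clones exceeded CD4 cells of 1-cell clones across much of the list. Taken 1 by 1 with all their cells, these clones ran from 13.1 to 42.2 per 10000. The interval lay above that of the 1-cell clones for 7 and below it for 3. The pooled intervals count UMIs and do not cover this spread between clones. The ratio of the sums was 1.62 (1.55 to 1.70), and 22 of the 36 genes measured were 1.5-fold or more higher, against 6.94% of all 6365 genes, while 0 were lower, against 4.35%. The genes measured had a median log2 ratio of 0.74, beside 0.07 over all genes. Of 8 licensing genes 6 were among them, with Cdc6 at 0.235 against 0.0826 per 10000 (2.85-fold, 1.49 to 5.90) and Mcm6 at 1.73 against 0.757 (2.29-fold, 1.84 to 2.86). Rrm2 had the highest ratio at 1.75 against 0.475 (3.69-fold, 2.84 to 4.85), followed after Cdc6 by Uhrf1, which guides Dnmt1 to new DNA (2.54-fold, 1.80 to 3.65), and Prim1, the catalytic primase subunit (2.34-fold, 1.46 to 3.86). Gins2 stood at 2.10-fold (1.21 to 3.82). Tipin (1.01), Rfc1, the large clamp loader subunit (1.04), Gins4 (1.09), Pola2 (1.16), Chaf1b (1.18) and Mcm4 (1.21) had intervals that hold 1, and Tipin, Rfc1, Gins4 and Chaf1b changed sides of 1 under at least 1 alternative.

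Other lists followed in part, beside 6.94% of all genes higher by 1.5-fold or more and 4.35% lower. Of 23 measured other replication genes 9 were higher by 1.5-fold or more, with Clspn at 2.37-fold (1.70 to 3.38), and 7 of 13 measured G1 to S regulators, with Ccne1 at 4.99-fold (2.25 to 13.1) from 48 and 7 UMIs and E2f8 at 10.2-fold (3.77 to 38.7) from 56 and 4, while 2 regulators were lower. The mitosis list had 2 of 26 genes higher by 1.5-fold or more, near the share of all genes, namely Aurkb at 1.71-fold and Kif11 at 1.69-fold. Its median log2 ratio was 0.22. Macrophage markers were alike in the CD4 clones of 1 cell and of 20 or more (2.04 and 2.09 per 10000), as were T cell markers (44.5 in both). Median depth was 5348 and 4828 UMIs. The ratio of the sums was below 1.5-fold, though still over 1, with a mean over cells (log2 0.58), with UMIs per cell (0.56) and with clones defined by TRB alone (0.46).

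In the CD8 class the same comparison gave 29.6 against 28.2 per 10000, a ratio of 1.05 (1.01 to 1.08). Of the 42 genes 2 were 1.5-fold or more higher, Rfc3 at 1.71 (1.25 to 2.38) and Cdc45 at 1.62 (1.03 to 2.64), against 3.73% of all genes, and 1 was lower, Mcm10 at 0.619 (0.375 to 1.03), against 4.09%. Counts of 2 and 1 among 42 genes are near those shares. Rrm2 was at 1.24 and Cdc6 at 0.881 (0.627 to 1.25).

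The ratio between the classes was lowest among clones of 1 cell, though the difference between clone sizes was not tested. There the CD4 class had 17.2 against 28.2 per 10000 in the CD8 class, a ratio of 0.608 (0.579 to 0.638), all 36 measured genes were under 1, and 24 were lower by 1.5-fold or more against 8.17% of all genes, and 0 higher against 6.74%. Cdc6 was at 0.282 (0.137 to 0.533), Rrm2 at 0.473 (0.353 to 0.627) and Mcm6 at 0.493. In clones of 2 to 4 cells the ratio of the sums was 0.993 (0.940 to 1.05), with 2 of 32 measured genes higher by 1.5-fold or more (7.84% of all genes) and 1 lower (6.52%). In clones of 5 to 19 it was 0.740 (0.708 to 0.773), with 0 of 39 higher (8.56%) and 7 lower (7.95%). In clones of 20 or more it was 0.940 (0.910 to 0.971). In the large clones 2 of 42 genes, Rpa2 (0.586, 0.498 to 0.686) and Pole (0.569), were lower by 1.5-fold, against 7.10% of all genes, 0 were higher, against 7.36%, and Rrm2 stood at 1.41 (1.22 to 1.62). Cells of 1 clone share an ancestor and 19 clones made up the large ones, so these intervals, which count UMIs, are too narrow for a difference between clones.

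**Figure D4:**
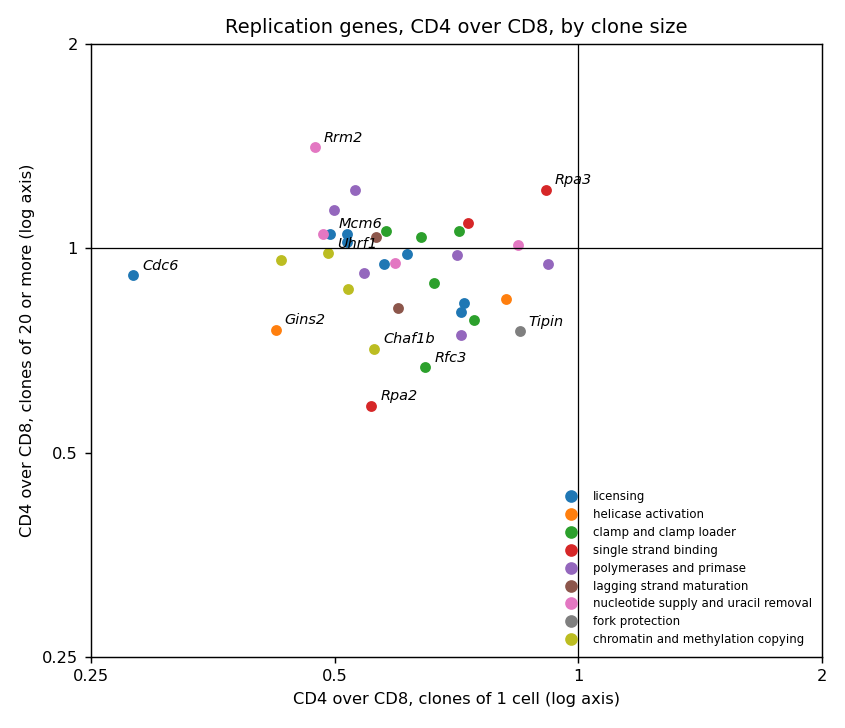
CD4 over CD8 ratio of each gene measured at both sizes, in clones of 1 cell (horizontal log axis) and in clones of 20 or more (vertical log axis), coloured by role. All points lie left of 1 on the horizontal axis, they scatter around 1 on the vertical axis, and Rpa2 is low on both (0.555 and 0.586).

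Of the 19 clones of 20 cells or more, 12 were mostly of the CD4 class and 7 mostly of the CD8 class. Replication sums of the 12 CD4 clones ran from 13.1 to 42.2 per 10000 with a median of 23.9, and the share of high cells from 1.82% to 45.5% with a median of 16.4%. For 7 of the 12 the interval of the sum lay above that of the CD4 clones of 1 cell and for 3 it lay below. The sums of single clones take all their cells, for these 12 clones 473 cells, of which 322 were of the CD4 class. The clones of 1 cell hold CD4 class cells only. The highest was a clone of 22 cells with 10 high cells (45.5%, 24.4 to 67.8), and the lowest share was that of a clone of 55 cells with 1 high cell (1.82%, 0.0460 to 9.72). The 7 CD8 clones ran from 16.8 to 38.8 per 10000 and from 6.02% to 35.2% high cells. The largest clone of all, with 263 cells, had 28.1 per 10000 and 49 high cells (18.6%, 14.1 to 23.9), beside 25.6 per 10000 and 16.3% over all CD8 cells, whereas the CD8 clones of 88 and of 83 cells had 31 (35.2%, 25.3 to 46.1) and 5 (6.02%, 1.98 to 13.5). Every large clone held at least 1 high cell, and 18 of 19 held an entry cell.

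**Figure D5:**
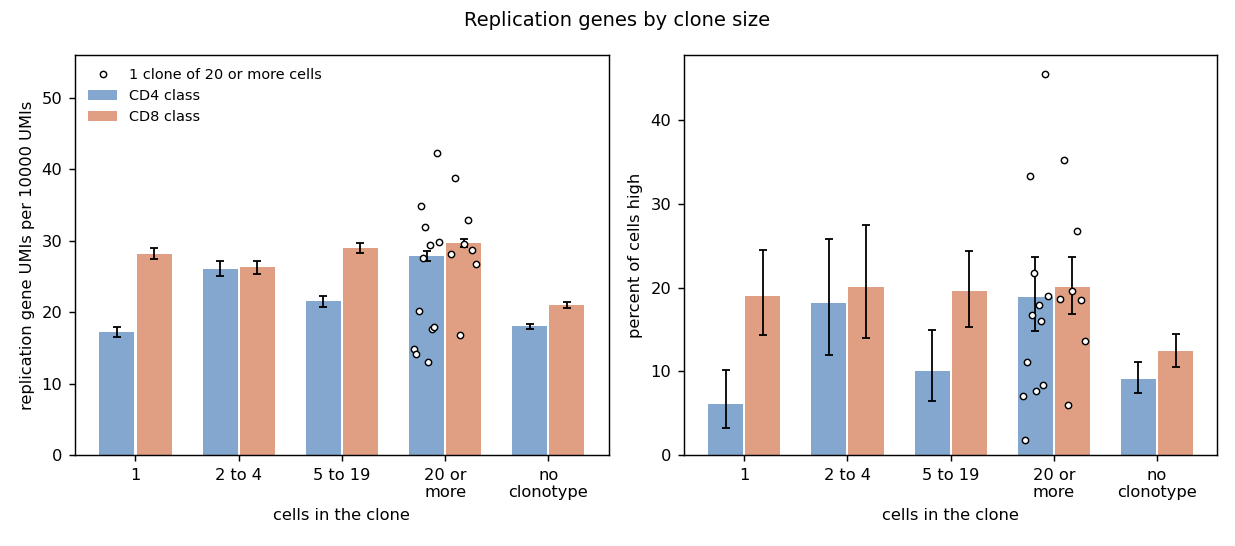
Replication gene UMIs per 10000 UMIs (left) and percent of cells that are high (right) by clone size, for the CD4 and the CD8 class. Bars are pooled cells of the class with 95% counting intervals. Open circles are single clones of 20 or more cells, with all cells of the clone. CD4 clones of 1 cell are lowest among the pooled bars (17.2 per 10000 and 6.10%), and the CD8 bars are level across the clone sizes. Single clones spread from 13.1 to 42.2 per 10000, some of them under the lowest bar.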

How the data were processed

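The deposited matrix holds UMI counts for each gene in each barcode, as whole numbers with no normalization. The TCR table holds deposited read and UMI counts per contig, with the authors' chain, segment, CDR3 and productivity calls. Cell Ranger and mm10 are named, per the submitters' processing notes; tool versions and the TCR reference are not given in the sources used here. Kept barcodes had at least 500 genes and at most 10% mitochondrial UMIs. Cells were thinned to 2000 UMIs (seed 11), and the threshold for high cells was the median plus 3 scaled median absolute deviations (factor 1.4826), rounded up to 7 UMIs. No clustering and no doublet caller was run.

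Levels are summed UMIs of a class per 10000, with exact Poisson intervals; shares have Clopper-Pearson intervals and ratios exact conditional binomial ones, all at 95%. With 1 pool there are no replicates and no test. "Measured" means at least 50 UMIs over both classes, and 1.5-fold is a descriptive threshold; a gene at 0 was set to 3 UMIs. Levels were not compared between genes. The 42 genes and all lists were chosen with earlier results of these data known. Named genes are the 6 highest and 6 lowest of the 42 in a comparison, up to 2 per role, up to 4 per other list by the interval bound farthest from 1, and the 10 most correlated genes; a few items are not reported here. Promoters are RefSeq windows of GRCm38.p6. The ratio step was checked on simulated counts and the thinning step on some of the kept cells. Scripts ran in Python 3.11.15 with pandas 2.3.3, numpy 2.4.6 and scipy 1.17.1, and figures were drawn with matplotlib 3.10.9.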

Additional observations from a re-analysis of the deposited data

How the results depend on the processing

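Each result was recomputed under 25 alternatives to the cell filters, thinning, threshold, class, scaling and clone definitions. Of the 275 values for the main results, 207 stayed within the counting interval and 68 moved. No difference of 1.5-fold or more changed sign. An alternative that does not enter a result returns its main value and is counted among the 207, so that count overstates stability. Entry shares (all, CD4, CD8) were 4.48%, 3.98% and 5.23% with thinning to 1000 UMIs, 1.86%, 2.10% and 2.01% without thinning, 11.4%, 9.73% and 12.8% with a threshold at 2 scaled deviations, 5.36%, 4.19% and 6.52% at 4, 2.53%, 2.58% and 2.80% with Mki67 read at full depth, and 1.67%, 1.5% and 2.09% with 0 UMIs of every mitosis gene. Without cells over 3 times the median depth, the share was 5.71% in all cells and 6.96% in CD8 cells, and with 1 cell per clone 9.68% in CD8 cells. In large CD4 clones, CD4 clones of 1 cell, large CD8 clones and CD8 clones of 1 cell, the shares were 3.11%, 0.469%, 1.96% and 1.24% without thinning, 14.0%, 8.92%, 13.7% and 16.1% at 2 deviations, 4.66%, 0.469%, 2.49% and 2.89% with full-depth Mki67, and 3.42%, 0.939%, 2.85% and 1.65% without any mitosis UMI. Thinning to 1000 gave 0.939% in CD4 clones of 1 cell, 7.65% in large CD8 clones and 5.37% in CD8 clones of 1 cell, and 1 cell per clone gave 14.3% in large clones of each class, from 7 cells each.

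The log2 ratio of the replication sum, CD4 over CD8 (-0.30), was -0.20 with class calls from 2 UMIs, -0.41 with 1 cell per clone, -0.34 as a mean over cells, -0.27 scaled by the median ratio and -0.38 per cell. Large over 1-cell clones in CD4 cells (0.70) gave 0.61 without the deepest cells, 0.60 with class calls from 2 UMIs, 0.85 with 1 cell per clone, 0.58 as a mean over cells, 0.63 by the median ratio, 0.56 per cell, 0.46 with TRB alone and 0.61 for clones of 10 or more. In CD8 cells (0.07) it was 0.15 without the deepest cells, 0.47 with 1 cell per clone and -0.08 per cell. The other replication genes, entry over low cells without Mki67 (1.41), gave 1.32 with thinning to more UMIs, 1.31 without thinning, 1.23 at 2 deviations, 1.16 with full-depth Mki67, 1.16 without any mitosis UMI, 1.24 with licensing genes setting the threshold, 1.31 with 1 cell per clone, 1.37 as a mean over cells, 1.45 by the median ratio and 2.48 per cell. The causes were not tested. The licensing threshold as first planned came to 0 UMIs, which every cell meets, and a threshold scaled to those genes' share of UMIs, chosen after seeing the data, replaced it. No paired analysis was possible because there is 1 pool. Depth limits Cdc6, Gins1, Gins3, Mcm10, Cdc45, Pole and Ung most.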
